A study of Mus musculus with 6 samples.

Results

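The genes Icos, Icosl and Cd28 were followed in expanded mouse natural killer (NK) cells, as 3 of the 518 endogenous and housekeeping genes of a NanoString nCounter panel. They were chosen by name, with their values in these libraries already known, so their levels and differences are given as a description and without a test. NanoString counts fluorescent barcodes hybridised to each transcript, with 1 probe per gene here. Transcript levels were measured in 6 libraries of NK cells from female C57BL/6 mice, 2 libraries in each of 3 groups.

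The first group, feeder with anti-TIM-3, was expanded for 12 days with a conjugate of IL-15 and its receptor alpha chain at 10 ng/mL and with AgN2a-4P feeder cells irradiated at 100 Gy, then exposed to anti-TIM-3 antibody for 4 h. The second, untreated feeder, was expanded in the same way and carried no treatment in its labels. The third, IL-15 alone, was expanded with the IL-15 conjugate and no feeder cells, although the shared growth protocol describes feeder cells for all samples. AgN2a-4P feeders are mouse neuroblastoma cells made to express CD80, CD86, CD137L and CD54, so they presented ligands of CD28 and of 4-1BB to the NK cells. The design text names an IgG2a isotype antibody as the control, while the control libraries are labelled as having no treatment. The antibody and the 4 h incubation therefore cannot be told apart if the controls were not incubated. NK cells were purified again before RNA was taken, and no pooling of animals is stated.

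ICOS and CD28 are related co-stimulatory receptors that recruit phosphoinositide 3-kinase after a lymphocyte is activated. CD28 is present on resting T cells and binds CD80 and CD86 of the B7 family, whereas ICOS is induced by activation and binds a single B7 family ligand, ICOS ligand, encoded by Icosl. ICOS ligand is best known on B cells, dendritic cells and macrophages, and in other lymphocytes contact between the pair is known to lower both proteins at the cell surface. ICOS is also a marker of group 2 innate lymphoid cells, and both receptors have been described on NK cells.

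In the mouse genome assembly GRCm38.p6, RefSeq places Cd28 at chr1:60746388-60773359 and Icos at chr1:60960773-61000322, with 187413 bases between them. Icosl lies at chr10:78069368-78079525. Because Icosl was the member higher in anti-TIM-3 libraries and the one with a promoter sequence at hand, the 250 bases before its start are shown, which RefSeq gives on the plus strand of the same assembly at chr10:78069118-78069367, with the motif matches described next in capitals.
Icosl promoter: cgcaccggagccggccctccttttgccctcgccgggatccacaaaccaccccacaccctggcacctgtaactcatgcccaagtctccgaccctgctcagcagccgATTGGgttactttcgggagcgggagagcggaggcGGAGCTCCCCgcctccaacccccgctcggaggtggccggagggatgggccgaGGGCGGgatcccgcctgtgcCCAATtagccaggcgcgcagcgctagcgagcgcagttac
Its G and C content was 68.8%, against a median of 52.4% over 32851 mouse promoter windows of the same length. Both strands were searched for 4 motifs. CCAAT, the letters of the CCAAT box, was found 2 times, at 145 to 141 bases before the start on the minus strand and at 39 to 35 bases before it on the plus strand, and is held by 33.9% of the windows. GGGCGG, the core of a GC box, was found 1 time at 59 to 54 bases before the start and is held by 32.7% of the windows. TATAAA was not found in these letters and is held by 12.4% of the windows. The NF-kappaB consensus matched 1 time, at 111 to 102 bases before the start on the minus strand, and is held by 7.25% of the windows. None of the matches overlap, and a match describes the letters only. Icos and Cd28 had no entry among the promoter sequences.

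The deposited values were log2 normalised counts, scaled so that the 20 housekeeping probes had the same mean of 9.22 in every library. Whole counts could be recovered from them, and totals were 299485 to 409626 for anti-TIM-3, 359824 to 379767 for untreated feeder and 422455 to 441185 for IL-15 alone. Negative control probes averaged 4.25 to 6.13 counts per library. Of 518 probes, 430 had at least 20 counts in at least 2 libraries and were tested with limma, all 3 chosen genes among them. Havcr2, which encodes TIM-3, read 87.9 and 24.3 normalised counts in the anti-TIM-3 libraries, against 717 and 1343 in untreated feeder and 682 and 538 in IL-15 alone. On the deposited scale the median probe was 0.47 higher (log2) in anti-TIM-3 than in untreated feeder libraries, so members are also given relative to that median. Without untreated feeder replicate 3, no probe passed the threshold in that comparison, against 166 with all libraries. All 12 NK markers listed were measured and lay above background. Whether the libraries of a group came from different animals is not stated. The p-values thus set group differences only against the spread among these libraries, and that spread may be technical.

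Icosl was several times higher in the anti-TIM-3 libraries than in both other groups, Icos was lower there, and Cd28 was highest in the untreated feeder libraries. The 3 genes therefore had 3 different orders across the groups, as the plot of levels by library shows. In RNA pooled over all purified cells of a sample, fewer cells carrying a transcript and less transcript per cell cannot be told apart.

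**Figure D1:**
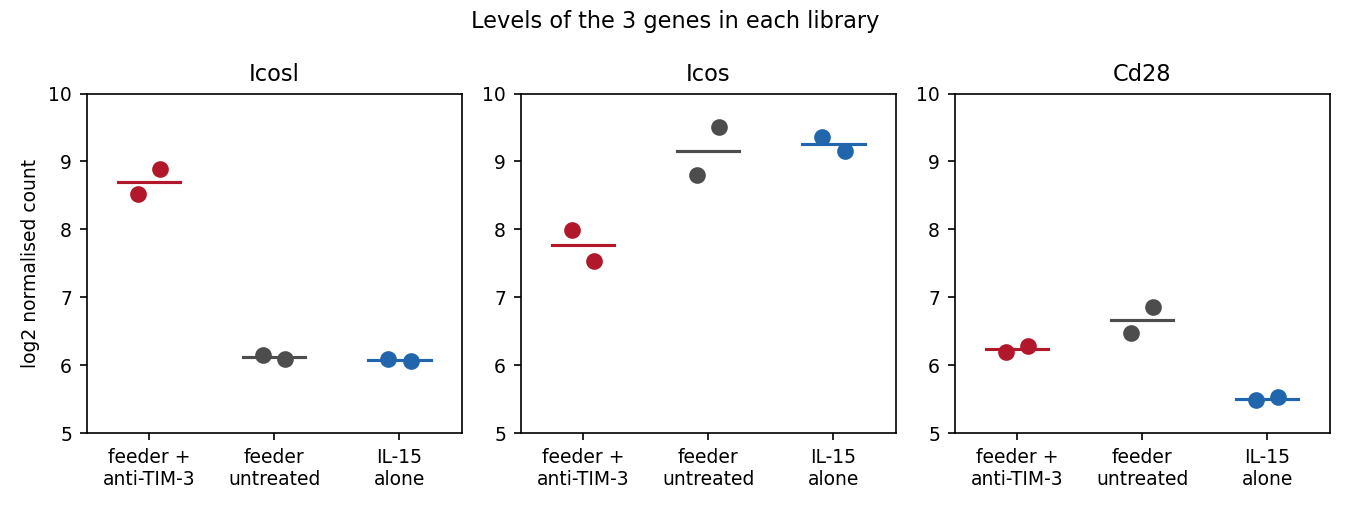
Log2 normalised counts of Icosl, Icos and Cd28 (vertical axis) in feeder with anti-TIM-3, untreated feeder and IL-15 alone (horizontal axis). Points are single libraries, 2 per group, and lines are group means. Icosl sits at 8.70 in the anti-TIM-3 libraries, against 6.12 and 6.08 in untreated feeder and IL-15 alone, and Icos at 7.76 against 9.15 and 9.26.

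Icosl, the ligand gene, read 367 and 474 normalised counts in the anti-TIM-3 libraries, against 71.3 and 68.0 in untreated feeder and 68.4 and 66.6 in IL-15 alone. Both anti-TIM-3 libraries stood above all 4 others, and the other 2 groups overlapped. How many other probes separated in this way was not counted, so it is not read as particular to Icosl. The recovered counts were 326 and 273 in the anti-TIM-3 libraries, against 72 and 55 in untreated feeder and 82 and 91 in IL-15 alone. In every group Icosl was well above the negative controls, by 62.6-fold in anti-TIM-3, 13.8-fold in untreated feeder and 16.03-fold in IL-15 alone. Anti-TIM-3 libraries averaged 421 ± 75.5 normalised counts, and untreated feeder libraries 69.6 ± 2.35 (SD, n = 2 each). The log2 difference was 2.58 ± 0.23 (SE), a 5.99-fold higher level in anti-TIM-3 libraries, and 2.12 relative to the median probe. It ranked 13 from the highest of the 430 tested probes. Against IL-15 alone, at 67.5 ± 1.32 (SD, n = 2), the difference was 2.63 ± 0.23, or 6.18-fold. Untreated feeder and IL-15 libraries differed by 0.045 ± 0.23, which is smaller than its error and turned to -0.13 when libraries were scaled by the trimmed mean of M values (TMM) over all probes.

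Icos, the receptor gene, read 255 and 186 normalised counts in the anti-TIM-3 libraries, against 444 and 727 in untreated feeder and 656 and 569.8 in IL-15 alone. The anti-TIM-3 libraries were the 2 lowest of the 6, and the IL-15 libraries lay inside the range of the untreated feeder libraries. The share of probes with such a separation was not counted here either. Counts were 226 and 107 in the anti-TIM-3 libraries, against 448 and 588 in untreated feeder and 786 and 779 in IL-15 alone, all far above background. Group means were 220.2 ± 48.6 in anti-TIM-3, 585 ± 200.2 in untreated feeder and 613 ± 60.9 normalised counts in IL-15 alone (SD, n = 2 each). The spread was widest in untreated feeder libraries, where replicate 3 had the highest Icos of all 6. The log2 difference between anti-TIM-3 and untreated feeder libraries was -1.38 ± 0.30, a level 2.61-fold lower, and -1.85 relative to the median probe. It ranked 25 from the lowest of the tested probes. Against IL-15 alone the difference was -1.49 ± 0.30, or 2.81-fold lower. Between untreated feeder and IL-15 libraries it was -0.11 ± 0.30, within the error. The gene was thus still measured in anti-TIM-3 libraries, at 36.1-fold over the negative controls, against 112-fold in untreated feeder and 144-fold in IL-15 alone.

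Cd28, the gene of the receptor for CD80 and CD86, had 45 to 94 recovered counts per library. It read 73.2 and 78.1 normalised counts in the anti-TIM-3 libraries, against 89.1 and 116 in untreated feeder and 45.1 and 46.1 in IL-15 alone. Both untreated feeder libraries were highest and both IL-15 libraries lowest. How many other probes kept such an order was not counted, so it is not read as particular to Cd28. Means were 75.7 ± 3.48 in anti-TIM-3, 103 ± 19.1 in untreated feeder and 45.6 ± 0.722 in IL-15 alone (SD, n = 2 each). Untreated feeder libraries exceeded IL-15 libraries in Cd28 by 1.16 ± 0.28 (log2), or 2.23-fold. The gene ranked 14 from the highest in that comparison, in which 0 of the 430 tested probes passed the threshold. Anti-TIM-3 and untreated feeder libraries differed by -0.43 ± 0.28, or -0.89 relative to the median probe. Anti-TIM-3 libraries exceeded IL-15 libraries by 0.73 ± 0.28, or 1.66-fold, but the median probe was itself 0.70 higher there, and relative to it the difference was 0.035.

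Since the 3 comparisons share libraries, their values are not independent of each other. Over all tested probes, limma's moderated test with Benjamini-Hochberg adjustment at 0.05 called 135 higher and 31 lower in anti-TIM-3 than in untreated feeder libraries, which is 31.4% and 7.21% of 430. Against IL-15 alone it called 189 higher (44%) and 30 lower (6.98%). Between untreated feeder and IL-15 alone it called 0 (0%), with 39 probes at an unadjusted p below 0.05. The 3 chosen genes were picked on these values, so they are given no call. For a single gene, an exact two-sided permutation test of 2 libraries against 2 cannot go below p = 0.333.

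How far the housekeeping scale sets these sizes is shown by the plot of differences on 5 scales. Under scaling by TMM, spiked-in positive controls, total count or the median ratio of each probe to its geometric mean over libraries (median of ratios), the anti-TIM-3 minus untreated feeder difference of Icosl was 2.03 to 2.29 and that of Icos was -1.89 to -1.68. The corresponding range for Cd28 was -0.93 to -0.72, all further below 0 than on the housekeeping scale. The excess of Cd28 in untreated feeder over IL-15 libraries was 0.77 to 0.96 on those scales. Its excess in anti-TIM-3 over IL-15 libraries was 0.030 to 0.14 there, so its size depended on the scale.

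**Figure D2:**
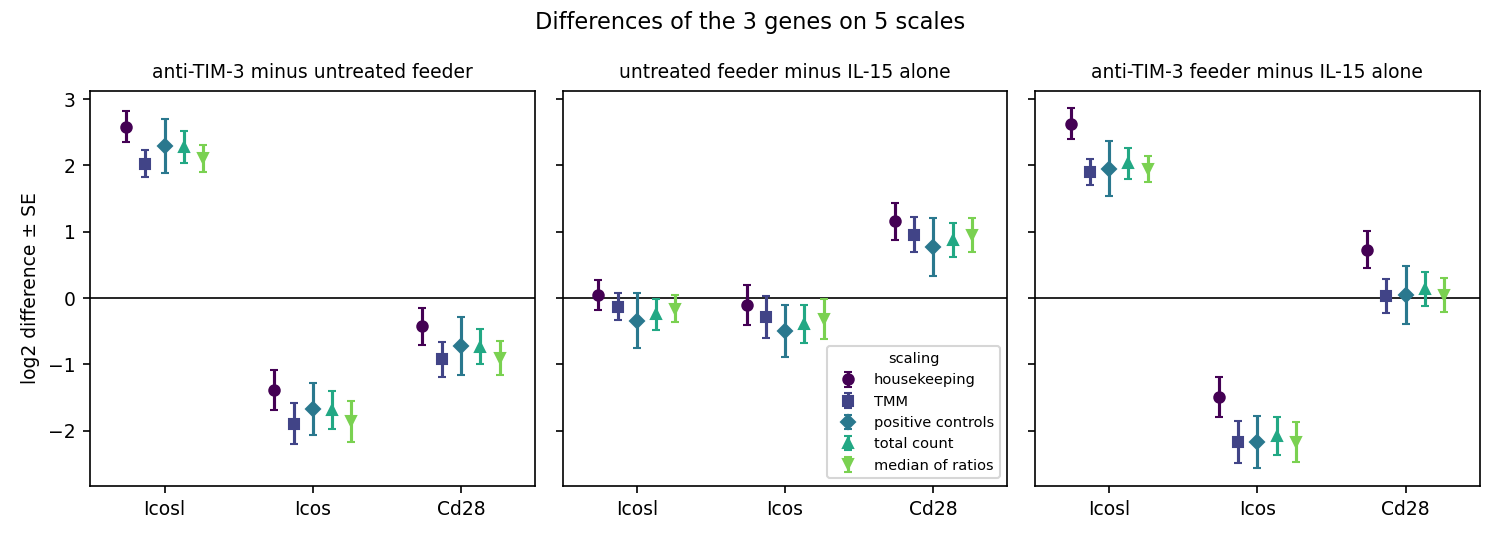
Log2 differences ± SE (vertical axis) of Icosl, Icos and Cd28 for 3 comparisons, with the values scaled by housekeeping probes, TMM, positive controls, total count or median of ratios (markers). The Icosl and Icos differences of anti-TIM-3 libraries keep their sign on all 5 scales, whereas the 0.73 of Cd28 between anti-TIM-3 and IL-15 libraries becomes 0.030 under TMM.

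The balance of receptor to ligand was taken as log2 Icos minus log2 Icosl within each library, which no scaling of a library can change. Probes differ in how well they hybridise, so the value 0 has no meaning as an equal number of molecules and only changes between libraries are read. The balance came to -0.53 and -1.35 in the anti-TIM-3 libraries, against 2.64 and 3.42 in untreated feeder and 3.26 and 3.10 in IL-15 alone. Anti-TIM-3 libraries lay apart from all others, and the IL-15 libraries lay inside the untreated feeder range. As a ratio, there were 0.693 and 0.392 Icos counts per Icosl count in the anti-TIM-3 libraries, against 6.22 and 10.7 in untreated feeder and 9.59 and 8.56 in IL-15 alone. The mean balance was -0.94 in anti-TIM-3 and 3.03 in untreated feeder libraries, a difference of -3.97 ± 0.47 (SE, 3 residual degrees of freedom) or 15.6-fold. On the housekeeping scale Icosl differed by 2.58 and Icos by -1.38, so the larger part lay on the ligand side. With TMM the 2 parts were 2.03 for Icosl and -1.89 for Icos. Against IL-15 alone, at 3.18, the difference was -4.12 ± 0.47, or 17.4-fold. Untreated feeder and IL-15 libraries differed by -0.15 ± 0.47. Summed over receptor and ligand, the normalised counts were 622 and 659.8 in the anti-TIM-3 libraries, against 515 and 795 in untreated feeder and 724 and 636 in IL-15 alone, which overlap. The sum adds 2 probes that hybridise differently and it changes with the scale. No constant total of receptor and ligand is read from it.

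**Figure D3:**
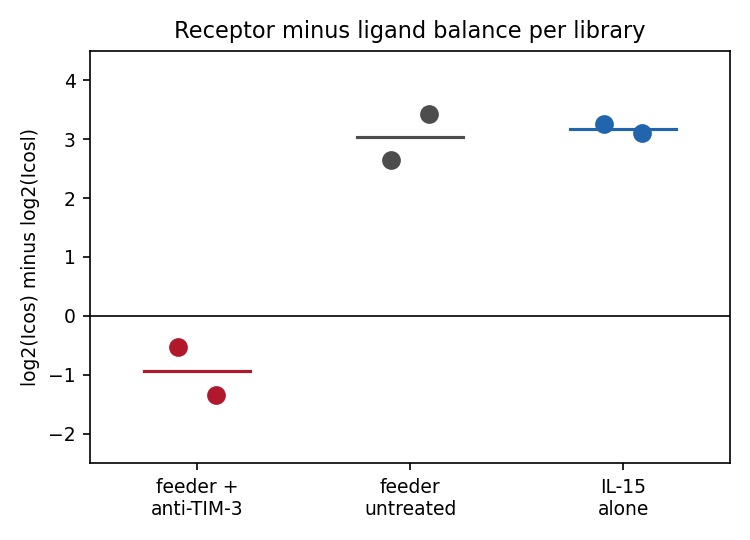
Receptor to ligand balance, log2 Icos minus log2 Icosl (vertical axis), in each library of the 3 groups (horizontal axis), with group means as lines. The anti-TIM-3 libraries lie at -0.53 and -1.35, and the other 4 lie between 2.64 and 3.42.

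The 2 receptors were compared in the same way. Log2 Cd28 minus log2 Icos came to -1.80 and -1.25 in the anti-TIM-3 libraries, against -2.32 and -2.65 in untreated feeder and -3.86 and -3.63 in IL-15 alone. Cd28 gained on Icos in the order IL-15 alone, untreated feeder and anti-TIM-3. The difference was 0.96 ± 0.28 between anti-TIM-3 and untreated feeder, 1.27 ± 0.28 between untreated feeder and IL-15 alone, and 2.22 ± 0.28 between anti-TIM-3 and IL-15 alone. In the first of these comparisons both genes were lower, Icos by more (-1.38, against -0.43 for Cd28). In the second, nearly all of the shift lay in Cd28 on the housekeeping scale (1.16, against -0.11 for Icos). That split depended on the scale: with positive controls the parts were 0.77 for Cd28 and -0.49 for Icos, and with total count 0.87 and -0.39. Across the 6 libraries, which share these 3 groups, log2 Icos and log2 Icosl correlated at r = -0.95, Icos and Cd28 at -0.14 and Icosl and Cd28 at 0.16.

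The authors' deposited table of 1 comparison, between groups named only by number, lists Icosl at a log2 fold change of 2.6 in its first row, Icos at -1.4 and Cd28 at -0.43. The fold changes in the authors' deposited table lay within 0.05 of the anti-TIM-3 minus untreated feeder differences for 475 of 498 genes, against 24 and 50 genes for the other comparisons.

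The other receptors of the CD28 family were few in the panel. Of 5 listed, 4 were measured and 3 tested, and since Icos and Cd28 are among those 3, no count or median of the family is given. Ctla4, the inhibitory receptor that competes with CD28 for CD80 and CD86, read 13.5 and 12.2 normalised counts in the anti-TIM-3 libraries, against 30.7 and 198 in untreated feeder and 152 and 61.5 in IL-15 alone. Anti-TIM-3 libraries were lowest, with counts of 12 and 7 near the negative controls. Ctla4 thus met the count minimum only through the groups where it was high, and its tests support nothing further. The difference from untreated feeder was -2.60 ± 0.90 and missed the threshold (limma, adjusted p = 0.064). From IL-15 alone it was -2.91 ± 0.90 and passed (limma, adjusted p = 0.0371). That call ended without either anti-TIM-3 library or without IL-15 replicate 1, with adjusted p between 0.0867 and 0.128. Pdcd1, which encodes PD-1, had 7 to 17 counts in all libraries and was not tested.

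Among B7 family ligands, 4 of 8 listed were measured and 3 tested. Besides Icosl, which was chosen on its values, the tested ones were the 2 ligands of PD-1. Cd274, encoding PD-L1, read 289.5 and 557 normalised counts in the anti-TIM-3 libraries, against 152 and 184 in untreated feeder and 201 and 162 in IL-15 alone, and rose by 1.27 ± 0.35 against untreated feeder (limma, adjusted p = 0.0316). Pdcd1lg2, encoding PD-L2, read 126 and 292 in the anti-TIM-3 libraries, against 61.4 and 56.9 in untreated feeder and 109 and 89.2 in IL-15 alone, and rose by 1.70 ± 0.42 against untreated feeder (limma, adjusted p = 0.0242). In both genes anti-TIM-3 replicate 2 was far above replicate 1. With the replicate number as a block neither gene passed. Neither passed on any of the 4 other scales, nor without anti-TIM-3 replicate 2 or either untreated feeder library. Against IL-15 alone Cd274 rose by 1.15 ± 0.35 (limma, adjusted p = 0.0333), a call that also ended on all 4 other scales, at 0.45 under TMM, and without anti-TIM-3 replicate 2, either untreated feeder library or IL-15 replicate 3. Pdcd1lg2 differed from IL-15 alone by 0.96 ± 0.42, at 0.25 under TMM, and did not pass (limma, adjusted p = 0.1). Cd86, a ligand of CD28, had 7 and 6 counts in the anti-TIM-3 libraries, against 24 and 13 in untreated feeder and 6 and 9 in IL-15 alone. It was highest in the libraries grown with feeder cells that carry CD86 and not exposed to antibody, but was too low to be tested. Cd80 was not analysed here.

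Of 7 co-stimulatory receptors of the TNF receptor superfamily, 5 were tested and 1 rose in anti-TIM-3 against untreated feeder libraries, where 31.4% of all tested probes rose. That was Tnfrsf14, encoding the receptor HVEM, at 282 and 318 normalised counts in anti-TIM-3 and 121 and 142 in untreated feeder libraries (1.19 ± 0.21, limma, adjusted p = 0.0104). With the replicate number as a block Tnfrsf14 did not pass. It did not pass under positive-control scaling, nor without anti-TIM-3 replicate 2 or either untreated feeder library. Tnfrsf9, which encodes 4-1BB, the receptor of the feeder line's CD137L, read 660.1 and 707 in the anti-TIM-3 libraries, against 979 and 1634 in untreated feeder and 1136 and 807 in IL-15 alone. Its difference of -0.89 ± 0.30 between anti-TIM-3 and untreated feeder missed the threshold (limma, adjusted p = 0.059) and passed as lower on all 4 other scales, at -1.41 under TMM.

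Of 7 listed co-stimulatory ligands of the TNF superfamily, 5 were tested and 2 rose against both other groups, beside 31.4% of all tested probes against untreated feeder and 44% against IL-15 alone. Tnfsf8, encoding CD30 ligand, read 389.7 and 365 normalised counts in the anti-TIM-3 libraries, against 63.4 and 53.1 in untreated feeder and 33.4 and 41.0 in IL-15 alone. It rose by 2.70 ± 0.26 against untreated feeder (limma, adjusted p = 0.00382) and by 3.35 ± 0.26 against IL-15 alone. Tnfsf14, encoding LIGHT, which binds HVEM, read 214 and 384 in the anti-TIM-3 libraries, against 51.5 and 43.3 in untreated feeder and 30.9 and 55.6 in IL-15 alone. Its rise against untreated feeder was 2.60 ± 0.42 (limma, adjusted p = 0.0104), close in size to the 2.58 of Icosl. Both rises passed on all 5 scales and ended, of the 6 libraries left out in turn, only without untreated feeder replicate 3. Tnfsf4, encoding OX40 ligand, differed by 1.42 ± 0.59 and did not pass (limma, adjusted p = 0.105).

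**Figure D4:**
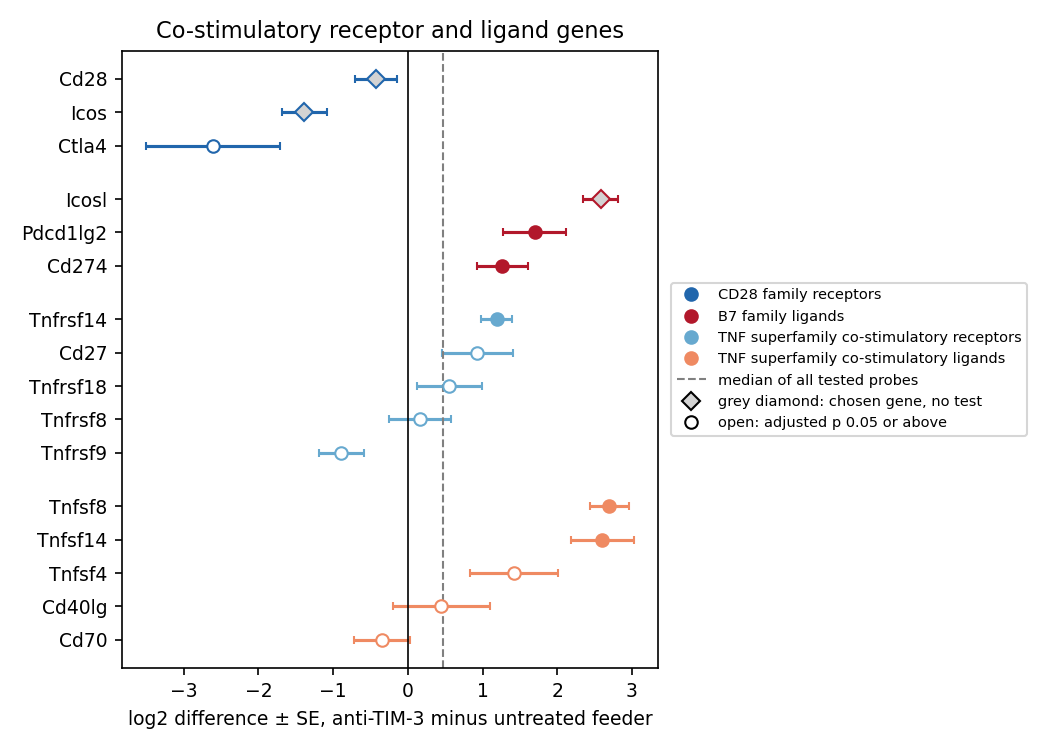
Log2 differences ± SE (horizontal axis) of anti-TIM-3 minus untreated feeder libraries for the tested co-stimulatory receptor and ligand genes (vertical axis), coloured by family. Filled circles passed limma's test, open circles did not, grey diamonds are the 3 chosen genes, which have no test, and the dashed line is the median of all tested probes at 0.47. The largest tested rises are those of Tnfsf8 at 2.70 and Tnfsf14 at 2.60.

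Signalling genes below CD28 and ICOS were listed from the shared pathway of antigen and co-stimulatory receptors. Of 37 listed, 20 were measured and tested, and 10 rose and 0 fell in anti-TIM-3 against untreated feeder libraries, with a median of 0.73 against 0.47 over all probes, of which 31.4% rose and 7.21% fell. Examples were Rela (1.21 ± 0.21, limma, adjusted p = 0.0104) and Nfatc1 (1.20 ± 0.25, limma, adjusted p = 0.0159), transcription factors of the NF-kappaB and NFAT families, and Prkcd, a protein kinase C (1.14 ± 0.20, limma, adjusted p = 0.0104). On other scales the count that rose was 1 with TMM, 0 with positive controls, 3 with total count and 1 with median of ratios. With the replicate number as a block it was 0. It was 0 without anti-TIM-3 replicate 2 or either untreated feeder library. The catalytic subunit Pik3cd of the kinase that both receptors recruit differed by 0.26 ± 0.16 and did not pass (limma, adjusted p = 0.234), and was picked out after its value was seen. Against IL-15 alone, 11 of the 20 rose and 0 fell, led by Syk (1.38 ± 0.34, limma, adjusted p = 0.0182), Zap70 (1.37 ± 0.21, limma, adjusted p = 0.00532) and Rel (1.23 ± 0.28, limma, adjusted p = 0.0138). Over all tested probes 44% rose in that comparison. The count that rose was 1 with TMM, with 1 that fell, and 0 with positive controls, 3 without anti-TIM-3 replicate 2 and 5 without IL-15 replicate 1.

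Among factors and cytokines tied to ICOS in T cells, 5 of 15 were measured and 4 tested. Gata3, a transcription factor of type 2 lymphocytes, rose by 1.20 ± 0.25 in anti-TIM-3 against untreated feeder libraries (limma, adjusted p = 0.0159), and Nfatc1 was the other of the 2 that rose. With the replicate number as a block neither gene passed. Neither passed on any of the 4 other scales, nor without anti-TIM-3 replicate 2 or either untreated feeder library. Between untreated feeder and IL-15 libraries no member of any of these 6 lists passed. Among signalling genes there, Zap70, a kinase of antigen receptor signalling, differed by 0.68 ± 0.21 (limma, adjusted p = 0.441).

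The 12 NK markers moved beside the 3 genes, with 5 that rose and 2 that fell in anti-TIM-3 against untreated feeder libraries, beside 31.4% and 7.21% of all tested probes. Their summed level was 108600 to 120000 in anti-TIM-3, 86420 to 104700 in untreated feeder and 69620 to 72690 normalised counts in IL-15 libraries. Klrb1c, encoding NK1.1, rose by 2.03 ± 0.46 (limma, adjusted p = 0.0191) but did not pass with TMM, total count or median of ratios. Prf1, encoding perforin, fell by 2.41 ± 0.39 (limma, adjusted p = 0.0104) and passed on all 4 other scales. It did not pass with the replicate number as a block, where 4 markers rose and 0 fell. With TMM 2 rose and 2 fell, and without untreated feeder replicate 3 none passed. The part of these shifts in the 3 genes' levels was not tested.

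Markers of other cells that carry these genes were read beside them. Cd3d, a chain of the T cell receptor complex, had 67.6 and 41.7 normalised counts in the anti-TIM-3 libraries, against 190.1 and 188 in untreated feeder and 22.5 and 64.4 in IL-15 alone. It was thus highest in the group where Cd28 was highest. It fell by 1.83 ± 0.54 in anti-TIM-3 against untreated feeder (limma, adjusted p = 0.0396), and was 2.31 ± 0.54 higher in untreated feeder than in IL-15 alone, which did not pass (limma, adjusted p = 0.441). The fall ended without anti-TIM-3 replicate 2 or either untreated feeder library. Only 2 of 10 T cell markers were measured, and their summed level was 448 to 610.5 in anti-TIM-3, 539 to 605.5 in untreated feeder and 319 to 440.4 normalised counts in IL-15 libraries. The other of the 2 was Cd247, which NK cells also express. The part of T cells in the Cd28 levels was not tested.

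Markers of myeloid and dendritic cells, which can carry ICOS ligand, were measured for 9 of 17 genes. Their summed level was 1090 to 1247 in anti-TIM-3, 454 to 469 in untreated feeder and 182 to 289.7 normalised counts in IL-15 libraries. Of 7 tested, 6 passed as higher in anti-TIM-3 than in IL-15 alone, and 4 with TMM, beside 44% of all tested probes on the deposited scale. Against untreated feeder 3 of the 7 passed as higher in anti-TIM-3, beside 31.4% of all tested probes. These were the class II gene H2-Aa (2.39 ± 0.45, limma, adjusted p = 0.012), the class II chaperone gene Cd74 (3.13 ± 0.90, limma, adjusted p = 0.0372) and the integrin gene Itgax. Itgax had 47 and 51 counts in anti-TIM-3, 17 and 21 in untreated feeder and 10 and 18 in IL-15 libraries. It thus met the count minimum only through the group where it was high, and its test supports nothing further. The 6, the 4 and the 3 above include Itgax, so those counts are not read against the shares of all tested probes. The partner gene H2-Ab1 read 152 and 134 normalised counts in anti-TIM-3 and 131 and 157 in untreated feeder libraries (-0.0064 ± 0.56, limma, adjusted p = 0.991). H2-Aa alone passed on all 4 other scales, and without untreated feeder replicate 3 none of the 3 passed, nor without anti-TIM-3 replicate 2. Csf1r, the defining receptor of macrophages, was near the negative controls in all libraries, and Cd14 had 13 and 11 counts in anti-TIM-3, 24 and 45 in untreated feeder and 33 and 18 in IL-15 libraries. Of 9 B cell markers 4 were measured, with sums of 50.7 to 78.1 in anti-TIM-3, 41.6 to 64.3 in untreated feeder and 41.7 to 43.2 in IL-15 libraries. Of these Cd22 and Tnfrsf17 were near background, and Ms4a1, which encodes CD20, had 8 to 15 counts. The part of myeloid cells in the Icosl levels was not tested.

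Of 11 markers of other innate lymphoid cells, which include Icos itself, 8 were measured. Their sum was 2953 to 3014 in anti-TIM-3, 1160 to 1396 in untreated feeder and 1137 to 1173 in IL-15 libraries. Apart from Icos, 4 were tested and 4 rose in anti-TIM-3 against untreated feeder, beside 31.4% of all tested probes. They were led by Rora (2.64 ± 0.46, limma, adjusted p = 0.0104) and Cxcr6 (2.26 ± 0.32), and Il17rb was near background. With TMM 3 rose. Gata3 passed on 0 of the 4 other scales and Kit on 3. Il7r had 5 to 30 counts and Il1rl1 2 to 15, and neither was tested. The rise of Cxcr6 ended without untreated feeder replicate 3, and that of Rora also without anti-TIM-3 replicate 2 or untreated feeder replicate 2. Of the 4 feeder line genes Cd86 and Icam1 were measured. Their sum was 504 to 1064 in anti-TIM-3, 138 to 183 in untreated feeder and 90.1 to 135 in IL-15 libraries, and nearly all of it was Icam1, an adhesion gene that activated lymphocytes also express. The part of these cells in the 3 genes' levels was not tested.

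By Pearson correlation of log2 values over the 6 libraries, among 409 other tested endogenous probes, Icos was most alike to Cma1 (r = 0.996), Bid (0.994) and Klrg1 (0.986). Klrg1, an inhibitory receptor of mature NK cells, read 65.3 and 46.9 normalised counts in the anti-TIM-3 libraries, against 386 and 903 in untreated feeder and 879.6 and 426 in IL-15 alone. Cma1, a mast cell chymase, read 6.76 and 1.74 in the anti-TIM-3 libraries, which is at background, against 48.5 and 331 in untreated feeder and 362 and 179 in IL-15 alone. Icosl was most alike to Tollip (0.997), Casp1 (0.993) and Ltb (0.991). Ltb, which encodes lymphotoxin beta, read 2836 and 6720 in the anti-TIM-3 libraries, against 394 and 305 in untreated feeder and 277 and 281 in IL-15 alone. Casp1, the inflammasome protease, read 1062 and 1327 in the anti-TIM-3 libraries, against 429.7 and 471 in untreated feeder and 489 and 446 in IL-15 alone. The likeness of Tollip did not outlast a change of scale, since with TMM its correlation with Icosl was -0.82. Cd28 was most alike to Abca1 (0.947), Itgb3 (0.936) and Slamf7 (0.929), the last of these at 0.723 with TMM. These correlations describe 3 groups of 2 libraries and carry no p.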

How the data were processed

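RNA of 6 NK cell libraries was measured; groups were taken from the expansion method and treatment in the labels. The deposited value table gives log2 values, which the authors scaled to housekeeping probes, as read from the values since no label states it. Per the labels the assay was quantitative PCR, whereas the files hold NanoString probes. The submitters' processing notes name limma without a version or its role. The authors' deposited table of 1 comparison gives log2 fold changes, a test score, p-values and q-values; only its fold changes were used. Another 18 columns and 12 rows named by instrument lane were not used, because no label ties lanes to samples. Aligner and build do not apply to this assay, and GRCm38.p6 is the assembly of the RefSeq tables used for positions and the promoter.

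Counts were recovered from the smallest step of each library, and 100% of values came out whole to within 0.01. Probes with at least 20 counts in at least 2 libraries (430; 88 left out) were fitted with limma 3.58.1 in R 4.3.3 as 3 groups over 6 libraries (trend and robust options of eBayes, no pseudocount) and Benjamini-Hochberg adjustment at 0.05. Differences are given ± the standard error of the fit, and the depth of 299485 to 441185 counts limits the genes near the negative controls. The fit was tested on simulated data.

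Icos, Icosl, Cd28 and the gene lists were chosen with earlier results of these data known. Named besides the 3 genes were, from each list, up to 3 members with the largest difference among those that passed, or up to 2 with the smallest p where none did, with Cd80, Cd86, Ctla4 and Pdcd1 where measured, defining cell markers, and the 3 probes most correlated with each gene. Alternatives were TMM (log2 CPM, prior count 2), the 4 highest positive controls, total count, median of ratios, subtraction of negative controls, no count filter, at least 50 counts, no trend or robust moderation, a block on the replicate number, and leaving out each library. A gene that this rule selects is not reported here.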

Additional observations from a re-analysis of the deposited data

How the results depend on the processing

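Relative to the deposited scale, probes past the threshold in anti-TIM-3 against untreated feeder numbered 103 (TMM), 58 (positive controls), 95 (total count) and 95 (median of ratios), against 166. On these scales, in that order, 53, 32, 56 and 52 of them were higher and 50, 26, 39 and 43 lower, against 135 and 31. Against IL-15 alone the counts were 80 with positive controls and 134 with total count, against 219. Leaving out 1 library gave 0 (without untreated feeder replicate 3) to 171 in the first comparison, with 43 without anti-TIM-3 replicate 2 and 59 without untreated feeder replicate 2. It gave 0 to 7 (without IL-15 replicate 3) between untreated feeder and IL-15 alone, and 113 (without anti-TIM-3 replicate 2) to 199 between anti-TIM-3 and IL-15 alone. A group left with 1 library was assumed to vary like the others.

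On the scales in the order TMM, positive controls, total count and median of ratios, Icosl differed between anti-TIM-3 and untreated feeder by 2.03, 2.29, 2.28 and 2.11, and from IL-15 alone by 1.90, 1.95, 2.04 and 1.95. Between untreated feeder and IL-15 alone Icosl was at -0.13, -0.34, -0.24 and -0.16. Icos was at -1.89, -1.68, -1.69 and -1.86 in the first comparison and at -2.18, -2.17, -2.08 and -2.17 against IL-15 alone, and between untreated feeder and IL-15 alone at -0.49 with positive controls. Cd28 was at -0.93, -0.72, -0.73 and -0.90 in the first comparison, at 0.96, 0.77, 0.87 and 0.95 between untreated feeder and IL-15 alone, and at 0.030, 0.052, 0.14 and 0.049 between anti-TIM-3 and IL-15 alone. Leaving out 1 library, the first comparison ran from -1.74 to -1.03 for Icos, 2.40 to 2.77 for Icosl and -0.62 to -0.24 for Cd28. Between untreated feeder and IL-15 alone it ran from -0.46 to 0.25 for Icos and 0.97 to 1.35 for Cd28, and for Icosl against IL-15 alone from 2.44 to 2.81. The receptor to ligand balance moved by less than 1 SD under every alternative run. Of 270 counts of calls, by comparison and setting for the 6 gene lists, 200 stayed within 1.5 times, 60 were fewer and 10 more. The 200 include counts between untreated feeder and IL-15 alone, where no list member passed with all libraries. A count with no call in either setting was scored as unchanged. The lists also hold the 3 chosen genes. Why the scales differ was not tested.

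Deviations of same-numbered libraries from their group means correlated at 0.0801, 0.0376 and -0.415, and any 2 groups share 1 number. With 2 libraries per group these values are too few to decide whether replicate numbers pair the samples. With the replicate number as a block, 61 probes passed between anti-TIM-3 and untreated feeder, 0 between untreated feeder and IL-15 alone, and 76 against IL-15 alone, with 1 residual degree of freedom.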
